A study of Mus musculus with 6 samples.

Results

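The Meis and Pbx genes encode TALE homeodomain proteins, transcription factors whose DNA-binding domain carries an extended loop. MEIS proteins pair with PBX proteins, and both act as partners of HOX and other factors, so that the complex and not a single protein selects the site that is bound. In the heart, MEIS1 is known for promoting the exit of cardiomyocytes from the cell cycle after birth, MEIS2 for its part in septation and outflow tract development, and PBX proteins for outflow tract patterning. Chromatin accessibility was examined at 6 of these genes, Meis1, Meis2, Meis3, Pbx2, Pbx3 and Pbx4, out of 21911 protein-coding genes. Every peak overlapping a gene body or the 10 kb to either side of it (GENCODE M21 on mm10) was taken, which gave 370 of the 587191 peaks called in the series. Overlapping peaks of different libraries were merged, leaving 106 of 169881 regions, and all 6 genes held at least 4 of them.

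The peaks come from Omni-ATAC-Seq, a transposase assay of open chromatin, on nuclei of whole postnatal day 1 (P1) mouse hearts purified through a 2.2 M sucrose cushion, with 50000 nuclei per library and 2 biological replicates per group. The authors chose this cushion because, by their account, it yields almost only cardiomyocyte nuclei. Input nuclei came from wild-type hearts and had no immunoprecipitation. Myc nuclei came from Nkx2-5 Cre/+; R26RSun1-Myc-Egfp/+ hearts, in which cells with a history of Nkx2-5-driven Cre carry a Myc-tagged nuclear envelope protein, and were pulled down with Myc antibody by magnet-assisted nuclear immunoprecipitation (MAN-IP). PCM1 nuclei came from hearts labelled wild-type and were pulled down with an antibody to PCM1, a centriolar satellite protein found around cardiomyocyte nuclei. Nkx2-5-driven Cre also marks smooth muscle and endothelial cells, and by the labels genotype and antibody change together between Myc and the other groups, so that their effects cannot be told apart there.

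The libraries differed in depth. They held between 75336 peaks (Input replicate 2) and 131500 peaks (Input replicate 1), and the background inferred from the peak values was 4.38 times as high in Input replicate 1 as in the shallowest library, PCM1 replicate 2. A library without a peak at a site gives no value there, and depth is 1 of the quantities that set whether a peak is called. Of 8 cardiomyocyte marker genes, 7 had a peak within 1 kb of the 5′ end in all 6 libraries, against 56.1% of all protein-coding genes. Tnni3, which encodes cardiac troponin I, had none in any. Here and below, the 5′ end is the outermost GENCODE start of a gene, and peaks at its other starts were not searched. The tagged Sun1 protein gave a check of the labels. Of 7 regions of the Sun1 gene without a peak in either Input library, Myc replicates 1 and 2 held peaks in 4 and 4, and PCM1 replicates 1 and 2 in 3 and 7, all with summits in coding exons. The regions were picked for lacking an Input peak, so the counts alone do not check a label. By the position of the summits in coding exons, the libraries labelled PCM1 went against their wild-type label at this gene. Below, PCM1 stands for the libraries so labelled. Peaks were compared by rank percentile, the rank of a peak's −log10 q-value within its own library, from 100 for the strongest peak down to 0 where no peak was called. With 2 libraries against 2, the exact permutation test cannot give a two-sided p below 0.333, and differences between groups are described and not tested. A region was called higher in a group when both of its libraries ranked above both libraries of the other.

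Meis1 (ENSMUSG00000020160.18, chr11:18879817-19018985, minus strand) had the most regions shared by all libraries. Its window held 34 regions, of which 13 had a peak in all 6 libraries. The density was 21.4 regions per 100 kb, higher than at 95.5% of the 2489 protein-coding genes of at least 100 kb, whose median was 9.61. Of the 34 regions, 24 were intronic, 2 lay at the promoter and 1 in a coding exon. Positions below are in kb from the gene's 5′ end, positive downstream. The strongest Meis1 region away from any protein-coding start was an intronic region at +60.4 kb, and the region with the widest excess of Input over PCM1 was another intronic region at +77.8 kb. Both are shown because they differed in opposite directions between Myc and PCM1. Each is given as 151 bases around the summit on the minus strand of mm10, 5′ to 3′, with capitals for matches to the motifs listed further on.
Meis1 +60.4 kb, chr11:18958472-18958622: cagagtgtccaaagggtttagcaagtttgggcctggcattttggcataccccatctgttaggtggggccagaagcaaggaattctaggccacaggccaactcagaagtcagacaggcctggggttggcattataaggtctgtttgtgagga
Meis1 +77.8 kb, chr11:18941070-18941220: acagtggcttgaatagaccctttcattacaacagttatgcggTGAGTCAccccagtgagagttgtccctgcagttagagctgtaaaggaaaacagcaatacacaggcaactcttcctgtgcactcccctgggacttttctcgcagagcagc

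The +60.4 kb window held none of the 9 motifs searched, and the +77.8 kb window held 1 AP-1 match. At +60.4 kb (chr11:18957767-18958796) the rank percentiles were 92.6 and 88.9 for Input, 82.2 and 85.6 for Myc, and 88.0 and 89.7 for PCM1. Both Myc libraries lay below all 4 others. At +77.8 kb (chr11:18940965-18941292) the percentiles were 69.4 and 50.7 for Input and 60.4 and 68.9 for Myc, and no peak was called in either PCM1 library. The summit held 68 and 17 tags for Input and 32 and 39 for Myc. At the mean level of the Myc libraries relative to background, the PCM1 libraries would have held 24.1 and 22.3 tags, whereas their smallest called peaks had 5 and 5. Peaks with fewer tags were thus called elsewhere in these libraries.

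Meis1 also had 3 flanking regions with higher values in Myc than in PCM1, picked after their values were seen. At +141.3 kb, beyond the 3′ end, the percentiles were 89.1 and 81.8 for Input, 91.6 and 90.4 for Myc and, for PCM1, 72.8 and 49.7. At −1.5 kb they were 89.9 and 77.2, 92.1 and 91.3, and 61.6 and 73.7 in the same order, and at −8.5 kb 86.7 and 59.5, 71.8 and 79.7, and 57.1 and 36.0. In each of these 3 regions, both Myc libraries ranked above both PCM1 libraries. Of all regions with a peak in either group, 32.5% had this order. A weaker region outside the gene body, at +147.1 kb, did not divide the groups. It had 30.0 and 0 for Input, 5.90 and 17.7 for Myc, and 0 and 13.1 for PCM1. The region at −0.8 kb did not divide the groups, with 60.5 and 40.3 for Input, 68.3 and 46.8 for Myc, and 65.3 and 62.7 for PCM1. An intronic region at +69.7 kb had weak peaks in the Input libraries alone, at percentiles 22.7 and 9.51.

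Meis2 (ENSMUSG00000027210.20, chr2:115863064-116065839, minus strand) had more regions, 41, but only 7 of them had a peak in all 6 libraries. Its density of 18.4 regions per 100 kb was higher than at 88.5% of the long genes, and 34 of its regions were intronic. The strongest region away from a protein-coding start lay at −1.3 kb, at the promoters of the noncoding genes 2700033N17Rik and G630016G05Rik. It is shown because it was the only one of the 106 regions with the joint PBX-MEIS site TGATTGAC, which stands in capitals beside an SP box on the minus strand of mm10.
Meis2 −1.3 kb, chr2:116067096-116067246: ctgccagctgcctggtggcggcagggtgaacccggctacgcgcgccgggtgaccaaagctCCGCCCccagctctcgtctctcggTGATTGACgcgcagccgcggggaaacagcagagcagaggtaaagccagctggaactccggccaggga

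This region had rank percentiles of 87.1 and 73.3 for Input, 88.2 and 82.9 for Myc, and 74.7 and 66.6 for PCM1, so that both Myc libraries lay above both PCM1 libraries. Among regions shared by all libraries, the highest ratio of Myc to PCM1 stood beyond the 3′ end of Meis2, at +209.9 kb (chr2:115855671-115856209). There the percentiles were 80.6 and 53.9 for Input, 82.3 and 82.3 for Myc, and 32.6 and 39.0 for PCM1. The summit pileup divided by the library's background was 28.8 and 23.4 for Input, 44.4 and 44.6 for Myc, and 15.4 and 14.4 for PCM1. The Myc values were thus above the Input values and the Input values above the PCM1 values, without overlap. Inside the gene, the intronic region with the highest mean percentile lay at +126.4 kb and had a peak in all 6 libraries. Its percentiles were 77.4 and 63.3 for Input, 69.6 and 51.4 for Myc, and 74.6 and 69.4 for PCM1, and the groups overlapped. An intronic region at +116.6 kb had percentiles of 66.2 and 51.1 for Input, 0 and 16.8 for Myc, and 64.4 and 21.2 for PCM1, the widest excess of Input over Myc. A pair of neighbouring intronic regions, at +116.1 and +108.9 kb, had peaks in the Myc libraries alone, at 44.8 and 10.2 and at 8.12 and 22.8. At the Myc level, PCM1 replicates 1 and 2 would have held 8.83 and 8.16 tags at +116.1 kb, and 7.13 and 6.59 at +108.9 kb. Input replicate 2 would have held 9.25 and 7.48, and the deeper Input replicate 1 35.7 and 28.9. The smallest called peaks had 5 tags in each PCM1 library and 6 in Input replicate 2, so calls in these libraries were near the floor. In Input replicate 1 the smallest had 11 tags, so the Myc level was well above its floor. The region at +152.5 kb had the widest excess of Myc over Input, with 10.6 and 0 for Input, 33.4 and 38.0 for Myc, and no PCM1 peak. The widest excess of PCM1 over Input, at +155.5 kb, was 2.103 and 0 against 15.4 and 39.7, with 16.9 and 1.74 for Myc.

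**Figure D1:**
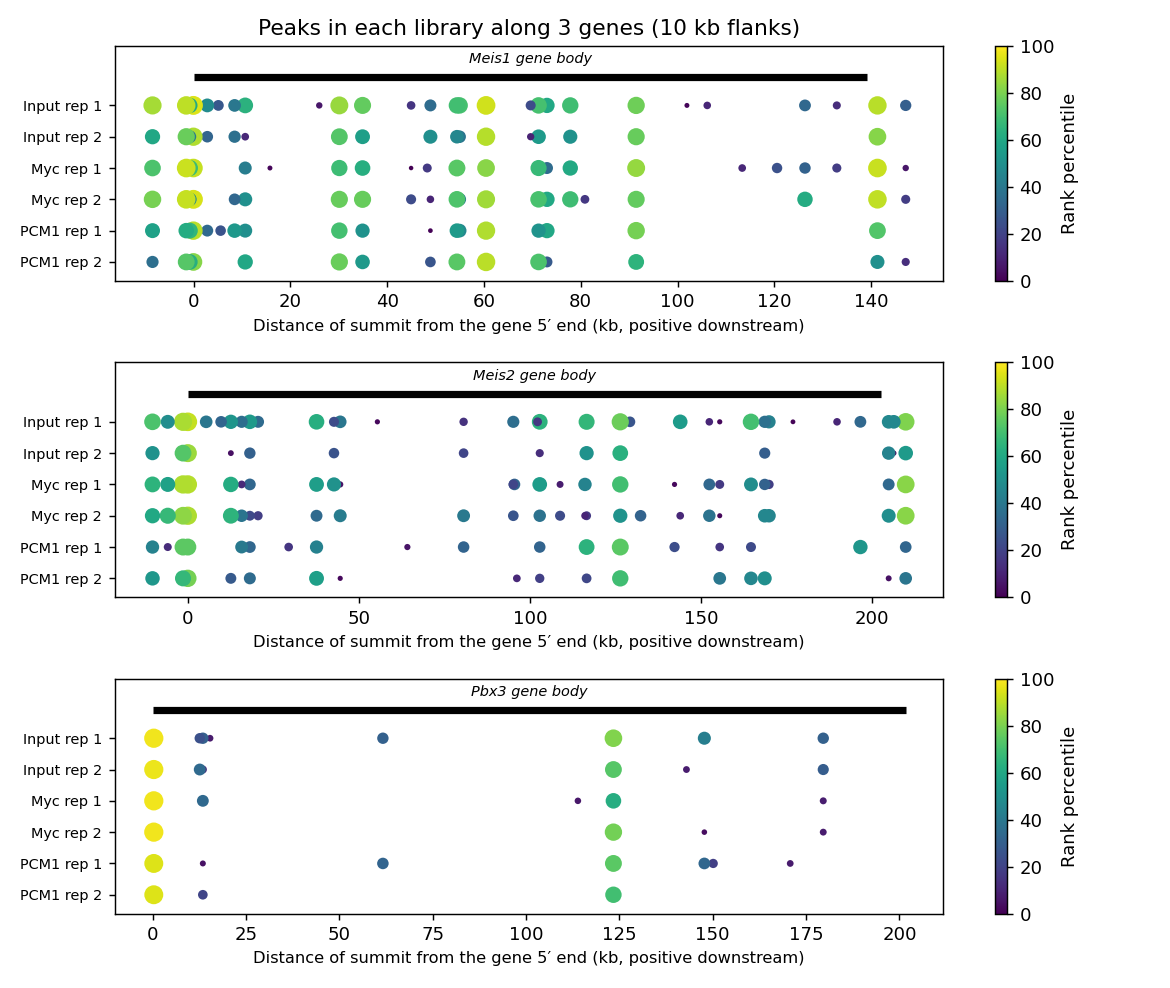
Peaks along Meis1, Meis2 and Pbx3. The x axis is the distance of the summit from the gene's 5′ end in kb, each line of points is a library, and colour and size give the rank percentile from 0 to 100. Meis1 shows 13 columns filled in all 6 libraries, Meis2 shows 7 and Pbx3 shows 2.

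Meis3 (ENSMUSG00000041420.18, chr7:16175090-16186504, plus strand), the family member best known from hindbrain development, had 4 regions, and 1 of them, at its promoter, was shared by all libraries. A flanking region at +17.5 kb (chr7:16192125-16192765) is shown because it had the widest excess of Myc over PCM1 among all 106 regions. The window below is on the plus strand of mm10 and held none of the motifs.
Meis3 +17.5 kb, chr7:16192506-16192656: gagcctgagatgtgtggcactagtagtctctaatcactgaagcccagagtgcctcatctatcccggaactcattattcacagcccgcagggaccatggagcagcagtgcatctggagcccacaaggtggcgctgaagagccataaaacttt

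The rank percentiles there were 41.8 and 0 for Input, 66.5 and 62.4 for Myc and, for PCM1, 0 and 0. At the Myc level, PCM1 replicates 1 and 2 would have held 17.7 and 16.3 tags and Input replicate 2 would have held 18.5, all above the smallest pileup of a called peak in those libraries. The widest excess of PCM1 over Myc was also near Meis3, at +14.4 kb, but its peaks were weak, with 10.6 and 0 for Input, none in Myc, and 15.4 and 7.27 for PCM1.

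Pbx2 (ENSMUSG00000034673.14, chr17:34591266-34597400, plus strand), a broadly expressed member of the family, lies in a gene-dense stretch. Of the 6 regions in its window, 3 had a peak in all libraries, and all 3 belonged to neighbouring genes. The region in the body of Notch4, which encodes a Notch receptor, ranked between 97.2 and 98.6, and the one at the promoters of Agpat1 and Rnf5 between 95.9 and 97.8. A second Agpat1 promoter region ranked between 77.5 and 88.9. The region at the start of Pbx2 itself (chr17:34592004-34592407) was called in 3 libraries. It covered the RefSeq start of the gene, which lies 993 bp downstream of the GENCODE 5′ end. Its window on the plus strand of mm10 is shown for its base composition, with 80.8% G and C and 2 SP boxes.
Pbx2 start, chr17:34592048-34592198: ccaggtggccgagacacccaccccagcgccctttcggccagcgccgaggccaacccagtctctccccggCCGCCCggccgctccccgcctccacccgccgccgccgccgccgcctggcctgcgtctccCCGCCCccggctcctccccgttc

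At this region the percentiles were 49.97 and 0 for Input, 51.7 and 53.0 for Myc, and 0 and 0 for PCM1. The pileups of the 3 called peaks were high, at 111, 59 and 60 tags, but the fold over the local background was only 2.69, 3.25 and 3.36. The local background was between 10.3 and 12.1 times the genome-wide background of the same library. In a library without a call, tags at this region were not measured by the peak list, and the comparison of Myc with PCM1 at Pbx2 rests on that limit.

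Pbx3 (ENSMUSG00000038718.15, chr2:34171457-34373142, minus strand), known for its part in hindbrain and outflow tract development, was nearly as long as Meis2 but had 12 regions, 11 of them intronic. The density of 5.41 regions per 100 kb was higher than at 29.2% of the long genes. Only 2 regions had a peak in all 6 libraries, the 5′ end and an intronic region at +123.4 kb (chr2:34249458-34250320). Both are shown on the minus strand of mm10 as the sole shared regions of the gene. Capitals mark 2 SP boxes in the first, and an SP box and a MEIS match in the second.
Pbx3 5′ end, chr2:34372725-34372875: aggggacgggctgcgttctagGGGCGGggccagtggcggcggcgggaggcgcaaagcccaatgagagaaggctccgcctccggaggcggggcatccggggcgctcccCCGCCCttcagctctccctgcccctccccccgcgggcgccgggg
Pbx3 +123.4 kb, chr2:34249646-34249796: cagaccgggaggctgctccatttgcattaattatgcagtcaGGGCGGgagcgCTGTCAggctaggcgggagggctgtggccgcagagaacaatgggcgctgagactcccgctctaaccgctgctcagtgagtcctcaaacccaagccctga

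The +123.4 kb region had percentiles of 81.0 and 73.7 for Input, 62.3 and 78.6 for Myc, and 74.3 and 69.9 for PCM1, and the groups overlapped. A weak intronic region at +12.7 kb had a peak in the Input libraries alone, at 24.8 and 34.1.

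Pbx4 (ENSMUSG00000031860.17, chr8:69832491-69872292, plus strand), best known from the testis, had 9 regions, and 5 of them had a peak in all libraries. Its strongest region was intronic, at +16.7 kb (chr8:69848798-69849464), and outranked the gene's own 5′ end on average. The plus strand of mm10 around its summit is shown because it had the lowest ratio of Myc to PCM1 among the shared regions. It held none of the motifs.
Pbx4 +16.7 kb, chr8:69849077-69849227: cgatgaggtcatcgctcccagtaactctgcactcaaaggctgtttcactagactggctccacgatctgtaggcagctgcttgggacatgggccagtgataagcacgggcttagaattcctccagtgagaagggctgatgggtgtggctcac

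The percentiles at this region were 92.1 and 87.0 for Input, 86.5 and 83.6 for Myc, and 88.9 and 91.5 for PCM1, so that both Myc libraries lay below the other 4. A region in the neighbouring gene Cilp2, at +49.8 kb, showed the opposite, with 70.1 and 53.6 for Input, 73.8 and 84.7 for Myc, and 42.2 and 30.7 for PCM1. A region in the body of Lpar2, at −4.4 kb, had a peak in the Input libraries alone, at 51.4 and 32.0.

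The 5′ end was the highest-ranked region of Meis1, Meis2, Meis3 and Pbx3. At 5 of the 6 genes, each library had a peak within 1 kb of the 5′ end, and so did 56.1% of all protein-coding genes. Pbx3 had the strongest, with percentiles of 97.9 and 97.2 for Input, 97.8 and 97.7 for Myc, and 94.7 and 94.6 in PCM1 (96.6 ± 1.55, SD over n = 6 libraries of all groups). Meis1 followed with 94.6 and 88.0, 91.3 and 94.1, and 89.3 and 81.9 (89.9 ± 4.66). Meis2 had 91.2 and 85.1, 88.7 and 87.6, and 74.6 and 78.9 (84.4 ± 6.34). Both PCM1 values of Meis2 and of Pbx3 lay below all 4 other values of the same gene. Pbx4 had 88.1 and 80.3, 81.8 and 81.0, and 81.1 and 79.0 (81.9 ± 3.18), and its Myc and PCM1 values overlapped. Meis3 had 72.2 and 45.9, 50.1 and 74.1, and 53.5 and 63.6 (59.9 ± 11.8), the widest spread between replicates of a group among the genes called in every library. Pbx2, with the 3 calls described above, averaged 25.8 ± 28.3, and its peak lay outside a narrower window of 200 bp around the GENCODE 5′ end.

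The order depended on the measure of peak strength. Ranked by fold, the means were 88.1 for Pbx3, 81.6 for Pbx4, 70.6 for Meis1, 68.5 for Meis2, 63.4 for Meis3 and 1.31 for Pbx2, so that Pbx4 stood above Meis1 and Meis2. In the order by −log10 q, the ranges of Pbx3 and Meis1 did not overlap over the 6 libraries, nor did those of Pbx4 and Meis3. The ranges of Meis1 and Meis2, of Meis2 and Pbx4, and of Meis3 and Pbx2 did. Within each library, however, Meis1 ranked above Meis2, in 6 of 6 libraries, with a mean difference of 5.51 ± 4.70 points (SD, n = 6). A two-sided exact permutation test that flipped the signs of the differences gave p = 0.03125, the lowest value within reach of 6 libraries. The test took the 6 libraries as independent, and the labels do not say whether some share a preparation of nuclei. The difference ranged from 2.60 points to 14.7 points. Ranked by fold instead of −log10 q, it was 2.19 points (exact permutation p = 0.625), so the call depended on the measure of peak strength. The protein-coding genes with a 5′ peak most like that of Meis1, by mean absolute difference over the 6 libraries, were Hdgfl3, Mtss1l and Bola1 (0.759, 0.795 and 0.822 points). Those most like Meis2 were Pald1, Zfp105 and Nab1 (0.937, 0.987 and 1.03 points).

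**Figure D2:**
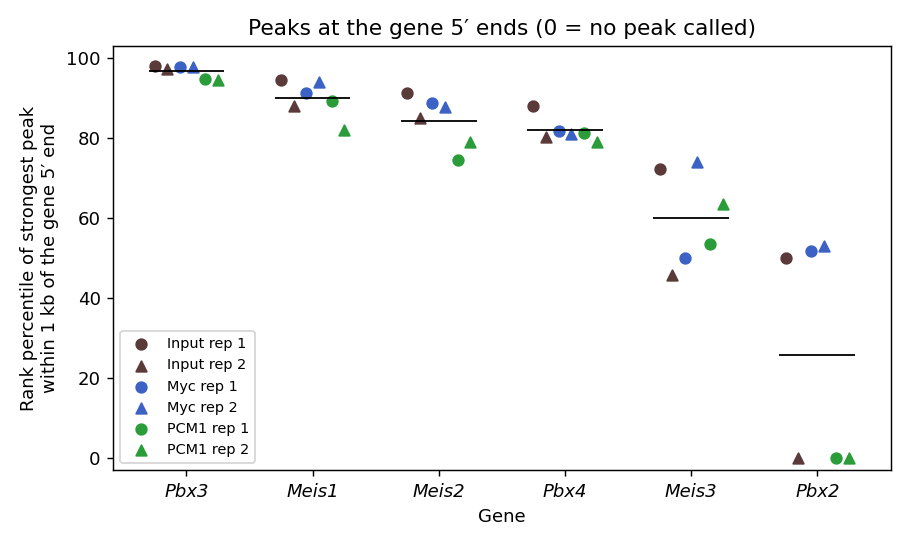
Rank percentile of the strongest peak within 1 kb of each gene's 5′ end. The y axis runs from 0 (no peak) to 100 (strongest peak of the library), each point is a library and the line is the mean of the 6. Pbx3 lies between 94.6 and 97.9, Meis1 and Meis2 lie lower, and Pbx2 has 3 libraries at 0.

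Taking all 106 regions, 31 had a peak in all 6 libraries, 29.2% against 28.8% of all regions. Intronic regions, 74 in number, had a median of mean percentiles of 10.6, the 8 promoter regions of the members had 70.9, and the 106 together had 14.5 against 14.7 over all regions. A single library held 30 of the regions (28.3%, against 30.4% of all regions), and for 15 of these it was Input replicate 1, the deepest. Peaks in both libraries of 1 group and in no other library were found at 4 regions for Input (1.08% of all regions), 2 for Myc (1.84% of all regions) and 0 for PCM1 (0.254% of all regions). The 4 Input regions were those named above at Meis1, Pbx3 and Pbx4 and one at +206.4 kb of Meis2, with percentiles of 46.9 and 2.60.

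Compared with PCM1, Myc ranked higher at 29 of the 86 regions with a peak in either group, 33.7% against 32.5% of all such regions. PCM1 ranked higher at 5 (5.81%, against 8.32%). By gene, Myc was higher at 8 regions of Meis1, 14 of Meis2, 2 of Meis3, 1 of Pbx2, 2 of Pbx3 and 2 of Pbx4. At the 5′ ends, Myc was higher at 4 of the 6 genes (Meis1, Meis2, Pbx2 and Pbx3), where 65.3% of protein-coding genes with a 5′ peak in either group were, and PCM1 at 0, against 7.48%. These shares were close to those of the genome. With the strongest 75336 peaks of every library, Myc was higher at 18 of 71 regions (21.9% of all regions) and PCM1 at 11 (19.9% of all regions). All 18 were among the 29 found with all peaks, and 4 of the 11 were among the 5. At equal numbers, Myc was higher at 5 and PCM1 at 4 regions of Meis1, and the counts for Meis2 were 7 and 5. The 5′ ends of Meis2, Pbx2 and Pbx3 remained higher in Myc. That of Meis1 no longer separated the groups, and that of Pbx4 ranked higher in PCM1, with 79.2 and 77.3 against 74.1 and 72.7. The order of Myc and PCM1 was kept at Meis1 −8.5, −1.5, +60.4, +77.8 and +141.3 kb and at Meis2 −1.3 and +209.9 kb. It was also kept at Meis3 +17.5 kb and at Pbx4 +16.7 and +49.8 kb. Meis3 +14.4 kb and Meis2 +116.1 and +108.9 kb lost it, and at Meis2 +108.9 kb no library kept a peak.

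Marker lists of some other cell types also divided Myc from PCM1. Among all protein-coding genes with a 5′ peak in either group, 65.3% ranked higher in both Myc libraries. The mean percentile of the 5′ peak over 8 fibroblast markers was 65.0 and 41.9 for Input, 60.9 and 66.9 for Myc, and 40.3 and 33.7 for PCM1. Over 8 endothelial markers it was 70.3 and 45.5, 63.1 and 68.8, and 45.9 and 51.4. A 5′ peak was called at 8, 6, 8, 8, 6 and 5 of the fibroblast markers and at 8, 7, 8, 8, 7 and 7 of the endothelial markers, in the same order of libraries. The 8 cardiomyocyte markers had 81.6 and 77.1, 74.9 and 78.8, and 77.2 and 77.3. For 8 smooth muscle and pericyte markers the values were 76.3 and 54.1, 59.4 and 68.2, and 59.8 and 45.7, and for 8 epicardial markers 48.9 and 36.7, 48.0 and 45.0, and 32.4 and 31.0. Of 8 immune markers, 5 had no peak in any library, among them Ptprc, which encodes the pan-leukocyte antigen CD45, and the list averaged between 2.40 and 17.4. The smooth muscle and pericyte list and the immune list overlapped between Myc and PCM1. Fibroblast, endothelial and epicardial markers ranked higher in both Myc than in both PCM1 libraries, and Msln, an epicardial marker, had no peak in any. With the strongest 75336 peaks of every library, the fibroblast means were 47.2 and 41.9, 49.0 and 52.4, and 36.7 and 31.3, and the endothelial means 48.2 and 45.5, 52.7 and 55.0, and 42.3 and 48.5, so that this order held. The cardiomyocyte means were then 77.2 and 77.1, 69.6 and 74.96, and 76.2 and 76.4, with both Myc libraries below the others. The part of other cell types in the differences at Meis and Pbx genes was not tested. In nuclei pooled from a tissue, more nuclei of a type and more open chromatin per nucleus cannot be told apart.

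**Figure D3:**
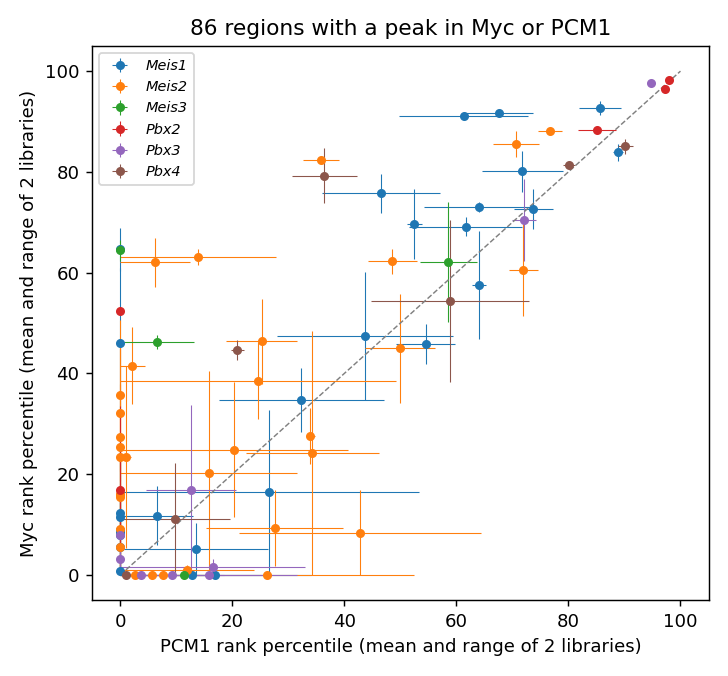
Myc against PCM1 at the 86 member regions with a peak in either group. Axes give the rank percentile in PCM1 (x) and Myc (y), each point is the mean of 2 libraries, the bars join the 2 libraries and colours mark the genes. Of the 86, 29 have both Myc libraries above both PCM1 libraries and 5 have the reverse.

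Against Input, Myc ranked higher at 13 of 99 member regions (13.1% of all regions) and Input at 11 (9.02% of all regions). PCM1 ranked above Input at 2 of 97 (3.09% of all regions) and Input above PCM1 at 18 (18.0% of all regions). The 18 regions were spread over Meis1 (7), Meis2 (5), Pbx3 (3) and Pbx4 (3), and none was at Meis3 or Pbx2. Input replicates differed by depth more than any other pair, and the counts against Input rest on both. Without Input replicate 1, Myc was higher than Input at 41 regions (47.3% of all regions) and PCM1 at 15 (28.7%). Without Input replicate 2, Input was higher than Myc at 52 (54.9%) and than PCM1 at 73 (76.0%).

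Depth was taken into account with the summit pileup divided by the genome-wide background of the library. At the 31 regions shared by all libraries, the log2 ratio of Myc to PCM1 had a median of 0.09, against 0.04 over 48861 shared regions, and ranged from −0.71 to 1.58. The median ratio of Myc to Input was 0.22 against 0.15, and of PCM1 to Input −0.03 against 0.09. Over all shared regions the ratio of Myc to PCM1 lay between −0.70 and 0.81 from the 10th to the 90th percentile, and of the 31 member regions 5 lay above that range and 1 below it. The highest ratios of Myc to PCM1 were those at Meis2 +209.9 kb (1.58), Meis1 +141.3 kb (1.35), Meis1 −1.5 kb (1.21) and the Cilp2 region near Pbx4 (1.19). At Meis1 +141.3 kb the normalized pileups were 50.04 and 50.8 for Input, 81.9 and 71.0 for Myc and, for PCM1, 36.8 and 23.3. At Meis1 −1.5 kb they were 76.3 and 65.4, 121 and 111, and 43.0 and 57.6. Both regions followed the order Myc, Input, PCM1 without overlap. At the low end, of which only the first was outside that range, were Pbx4 +16.7 kb (−0.71), Meis2 +126.4 kb (−0.56), Pbx4 +35.5 kb (−0.51) and Meis1 +60.4 kb (−0.50). For Pbx4 +16.7 kb the normalized pileups were 56.9 and 60.5 for Input, 44.4 and 39.7 for Myc, and 61.4 and 76.4 for PCM1, and for Meis1 +60.4 kb 67.5 and 75.2, 45.8 and 57.1, and 65.5 and 79.7. In both, the Myc values lay below all 4 others. At the 5′ ends the log2 ratio of Myc to PCM1 was 0.62 for Meis1, 0.64 for Meis2, 0.42 for Pbx3, 0.14 for Meis3 and −0.12 for Pbx4.

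**Figure D4:**
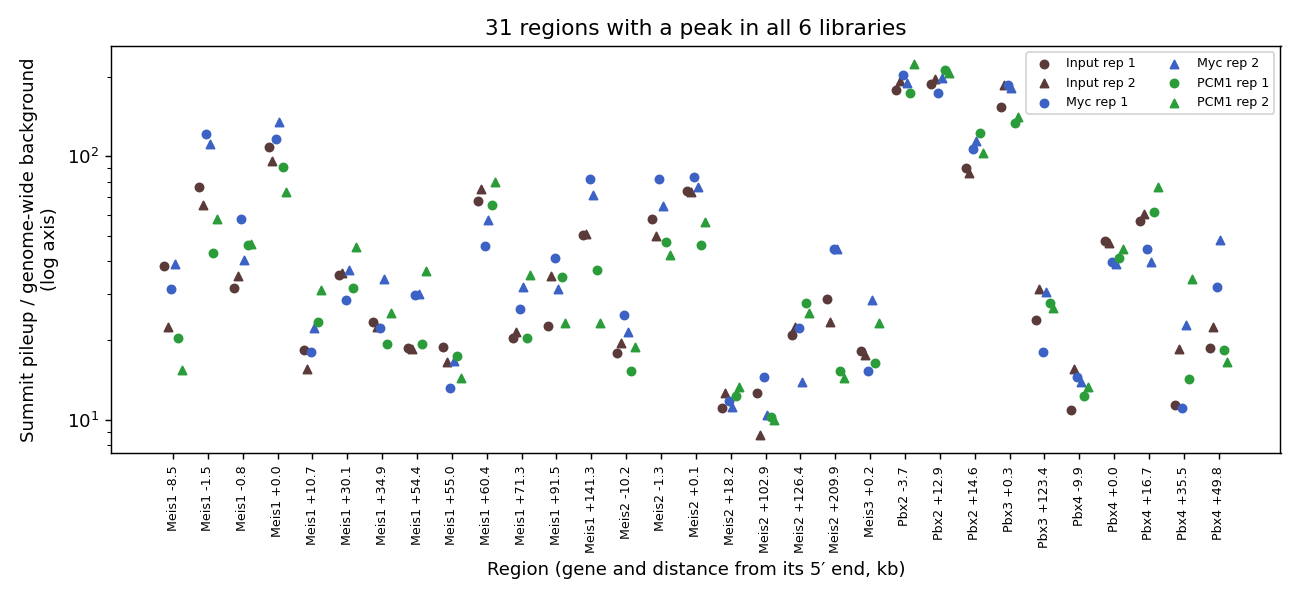
Summit pileup over the genome-wide background, on a log axis, at the 31 member regions with a peak in all 6 libraries. Each point is a library, and regions are named by gene and distance from the 5′ end in kb. Meis2 +209.9 kb has 44.4 and 44.6 in Myc against 15.4 and 14.4 for PCM1, and Pbx4 +16.7 kb has 44.4 and 39.7 against 61.4 and 76.4.

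A list of 16 genes linked to the Meis and Pbx genes by family or by reported function was examined at the 5′ ends. Of the 16, 13 had a peak in all 6 libraries, against 56.1% of all protein-coding genes. Hif1a had one in Myc replicate 2 alone (5.99), and Hoxb13 and Cdkn1a had none. Only the outermost GENCODE start was searched, so a peak at another start of these genes would be missed. The median of the 16 means was 72.5, against 64.6 over all protein-coding genes. Pknox1, a TALE partner of PBX proteins, had among the strongest peaks, between 99.1 and 99.998, and ranked higher in PCM1 than in Myc. Irx3, an Iroquois gene active in the ventricular conduction system, was also higher in PCM1, with 93.0 and 86.9 for Input, 86.5 and 89.7 for Myc, and 94.0 and 94.9 for PCM1. The other 6 genes that divided the groups were higher in Myc, namely Pknox2, Tgif1, Tgif2, Irx1, Cdkn2a and Cdkn2b. The calls for this list, in both directions, used all peaks and were not repeated with equal numbers of peaks per library. At equal numbers the 5′ end of Meis1 had lost its separation of Myc from PCM1. Some gaps in the list were narrow, as at Pknox2, with 76.9 and 78.7 for Myc and 74.5 and 75.6 for PCM1. Cdkn2a and Cdkn2b encode inhibitors of cyclin-dependent kinases and have been linked to MEIS1 in cardiomyocytes. Cdkn2a had 79.97 and 63.6 for Input, 86.5 and 86.7 for Myc, and 44.2 and 42.4 for PCM1. Cdkn2b had 89.6 and 76.0, 90.3 and 91.0, and 78.8 and 78.4. For Irx1 the values were 81.0 and 74.9, 73.6 and 79.8, and 46.3 and 48.1. At Cdkn2a and Cdkn2b both Myc libraries also ranked above both Input libraries, whereas at Irx1 Myc and Input overlapped. Among the 14 listed genes with a 5′ peak in Myc or PCM1, 6 were thus higher in Myc, against the 65.3% given above, and 2 in PCM1, against 7.48%.

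Motifs were counted on both strands within 100 bp of the summit. The MEIS motif TGACAG was found in 21 of the 106 regions (19.8%), against 20.04% of all regions, and 11 of the 21 were at Meis2. The joint site TGATTGAC was found in 1 region (0.943%), against 0.417%. The GATA motif AGATAA was found in 20 (18.9%, against 12.0%), and 8 of these were at Meis1 and 8 at Meis2. The NKX2-5 motif TNAAGTG was found in 16 (15.1%, against 10.95%), 7 at Meis1 and 7 at Meis2. The T-box motif AGGTGT was found in 4 (3.77%, against 8.83%), and the TEAD motif GGAATG in 16 (15.1%, against 15.0%). The MEF2 motif was found in 5 (4.72%, against 4.85%), the AP-1 motif TGANTCA in 7 (6.60%, against 8.82%) and the SP box GGGCGG in 13 (12.3%, against 11.2%). The MEIS motif overlaps the joint site where TGATTGAC is followed by AG. A match is a description of the sequence and not a bound site.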

How the data were processed

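Omni-ATAC-Seq peaks of 6 libraries (Input, Myc and PCM1, 2 biological replicates each, grouped by the labels) were used. The authors used fastq-mcf for trimming and Bowtie2 2.3.3.1 for alignment to mm10, marked duplicates with Picard 2.2.1, removed blacklisted regions with bedtools 2.7.1, shifted alignments for Tn5 and called peaks per library with MACS2 2.1.0.20160309 at a q-value of 0.05. Each deposited list gives, per peak, the fold of the summit pileup over the local background, the −log10 p-value and −log10 q-value, and a score, 10 times the −log10 q-value without its decimals.

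Peaks overlapping a gene body or the 10 kb to either side (GENCODE M21) were taken, and peaks overlapping by at least 1 bp were merged. Peaks were ranked by −log10 q within a library. The pileup and local background were solved from the fold and the p-value, and the modal background stood for the library's depth (0.903 to 3.957 tags). At least 99.9977% of the pileups of each library were whole within 0.02. No read counts were used, so calls cover peak detection and not coverage, and Poisson-based values cover counting error only. Ranking and merging were tested on simulated data. Sequences were read from GRCm38, the assembly also called mm10. Python 3.11.15, numpy 2.4.6, pandas 2.3.3, scipy 1.17.1, pysam 0.24.0 and matplotlib 3.10.9 were used.

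The regions named were, per gene, that at the 5′ end and the strongest over 1 kb from protein-coding starts, those with peaks in both libraries of 1 group alone (at most 3 per group), and the widest gap for each pair of groups and direction. The regions at −1.5, −8.5, +141.3 and +147.1 kb of Meis1, +206.4, +126.4 and +209.9 kb of Meis2, +35.5 and +49.8 kb of Pbx4 and those of genes near Pbx2 were chosen after their values were seen. The members and lists were chosen with earlier results of these data known. Alternatives were a q-value of 0.01, the strongest 75336 peaks of each library, regions from 100 bp around summits, ranks by fold, flanks of 2 kb, a 5′ window of 200 bp and each library left out in turn.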

Additional observations from a re-analysis of the deposited data

How the results depend on the processing

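Shares of all regions stand in parentheses. With the strongest 75336 peaks of each library, PCM1 ranked above Input at 7 member regions (16.4%), Myc above PCM1 at 18 (21.9%), PCM1 above Myc at 11 (19.9%), Myc above Input at 13 (20.6%) and Input above Myc at 14 (19.7%), and the 5′ peak of Pbx4 averaged 77.1. Regions built from 100 bp around summits gave 4 (3.57%) for PCM1 above Input, and flanks of 2 kb gave 3 (8.32%) for PCM1 above Myc. Ranking by fold gave 17 (10.5%) for Input above Myc against 11 (13.0%) for Myc above Input, the reverse of the order with −log10 q, 9 (9.13%) for PCM1 above Myc, 5′ averages of 70.6 for Meis1, 68.5 for Meis2, 81.6 for Pbx4 and 88.1 for Pbx3, and a Meis1 minus Meis2 difference of 2.19 points (exact permutation p = 0.625). The cause was not tested. A 5′ window of 200 bp left Pbx2 at 0.

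Leaving out each library in turn gave a Meis1 minus Meis2 difference of 3.68 to 6.10 points, each with an exact permutation p of 0.0625, the smallest that 5 libraries allow. A group with 1 library left ranks above the other more easily by construction, and the counts then ran from 13 to 41 for Myc above Input, 11 to 52 for Input above Myc, 2 to 17 for PCM1 above Input, 18 to 73 for Input above PCM1, 28 to 44 for Myc above PCM1 and 5 to 20 for PCM1 above Myc. The counts over 1.5 times the full ones came without Input replicate 1 (41 for Myc above Input, 47.3%, and 15 for PCM1 above Input, 28.7%), without Input replicate 2 (52 for Input above Myc, 54.9%, and 73 for Input above PCM1, 76.0%), without Myc replicate 1 (29 for Myc above Input, 30.6%, and 12 for PCM1 above Myc, 13.2%) and without Myc replicate 2 (29 for Myc above Input, 30.3%, 17 for Input above Myc, 14.9%, 44 for Myc above PCM1, 55.7%, and 11 for PCM1 above Myc, 14.1%). They also came without PCM1 replicate 1 (8 for PCM1 above Input, 13.1%, 29 for Input above PCM1, 26.3%, and 16 for PCM1 above Myc, 20.7%) and without PCM1 replicate 2 (17 for PCM1 above Input, 14.4%, and 20 for PCM1 above Myc, 22.0%). Regions in all remaining libraries numbered 31 to 34. Without PCM1 replicate 1 and without PCM1 replicate 2, Myc ranked above PCM1 at 35 (41.7%) and 34 (40.6%) regions. No paired analysis was possible because the labels do not say which libraries, if any, share a preparation of nuclei. By the paper's account, part of the cushion-purified nuclei served as input and the rest went to MAN-IP. The labels, however, give Input and Myc different genotypes, so by the labels these groups share no hearts. Input and PCM1 are both labelled wild-type, but the Sun1 check went against that label for PCM1. Whether PCM1 libraries share preparations with another group is not known. Equal replicate numbers were not taken as pairs. The values set between groups come from no test, and a test with the spread pooled over the 3 groups was not run. A site without a peak has no value in these lists.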
